A study of Homo sapiens with 8 samples.

Results

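Expression changes after JQ1 alone were described on 4 of the 8 arrays of a study of the osteosarcoma line MNNG/HOS, a chemically transformed derivative of HOS cells. The members were the 2 arrays labelled JQ1 and the 2 labelled DMSO, taken by the titles of their sample records. JQ1 cells received JQ1 at 7.5 mM as labelled (the unit is the label's and was not checked), and DMSO cells received the solvent. The other groups, used for a second JQ1 comparison and a shared estimate of the spread, received JQ1 at 7.5 mM with rapamycin at 12.5 nM, or rapamycin at 12.5 nM alone. All cells were of this 1 line, and how long they were treated is not stated in the sources used here. Nothing in the labels says whether replicates were separate cultures, so the p-values cover only array-to-array spread, part or all of which could be technical.

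JQ1 binds the acetyl-lysine pockets of the BET bromodomain proteins, BRD2 and BRD3 among them, and displaces them from chromatin. The elongation kinase P-TEFb (CDK9 with a cyclin T) releases paused RNA polymerase II at promoters, and HEXIM1 holds that kinase inactive. In many cell types BET inhibitors raise HEXIM1, the serpin gene SERPINI1 and histone genes, and lower lineage genes that depend on large enhancers.

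Values are normalized probe intensities with a floor of 20, compared on the log2 scale. Mean intensity ran from 464.9 to 470.7 on the JQ1 arrays and from 455.5 to 459.2 on the DMSO arrays, and 57.1% to 58.6% of the 47304 probes on these 4 arrays stood at the floor. Replicates correlated at 0.977 in JQ1 and 0.977 in DMSO over the 23860 probes kept, against 0.972 and 0.966 between a JQ1 array and the DMSO array of the same replicate number. The number of arrays limits the precision: a single array had an SD of 0.396 within JQ1 and 0.389 within DMSO on the log2 scale, over genes. Same-numbered arrays of all groups deviated together (correlations of 0.423 to 0.549), so the replicate number entered the model as a block.

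The deposited non-normalized table names 6 of the 8 arrays differently. Its columns, read from left to right, matched replicate 1 of DMSO, JQ1, rapamycin and the combination in the value table, and then replicate 2 in the same order. Its header calls the 2 JQ1 arrays Contrl rep2 and Rapa rep2, and the DMSO arrays Contrl rep1 and Rapa rep1. Groups below follow the sample records; if the header were right, the comparison would be between other groups. Of 16 osteoblast and mesenchymal markers, SP7, ALPL, COL1A2 and THY1 were at the floor on all 4 arrays. The bone markers IBSP and BGLAP were at or near it, with at most 22.1 and 30.8. Others were measured, among them VIM (31454 and 32417 in JQ1, 33298 and 28108 in DMSO), CDH11, the bone matrix gene SPP1 (277.6 and 338.6 in JQ1, 289.1 and 394.6 in DMSO), COL1A1 (225.4 and 132.3 in JQ1, 261.9 and 123.0 in DMSO) and SPARC.

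Between JQ1 and DMSO, 1427 of 12759 genes differed (11.2%; limma, Benjamini-Hochberg adjusted p under 0.05), and more of them were lower than higher. In all, 855 genes fell (6.7%) and 572 rose (4.48%), with a median log2 change of -1.21 among the fallen and 1.14 among the risen. The log2 change exceeded 2 in size for 101 fallen and 52 risen genes. With each array centred on its median, the split was 732 lower and 758 higher. With quantile normalization it was 805 lower and 672 higher, so the excess of falls depends on which scaling is used. The JQ1 and DMSO arrays did not overlap for 1379 of the called genes, against 43.1% of all genes tested (20.1% higher and 23.0% lower in JQ1). Both JQ1 arrays stood at the floor for 83 of the fallen genes, and both DMSO arrays for 34 of the risen ones; their folds are lower bounds. In RNA from whole cultures, fewer cells of a kind and less RNA per cell cannot be told apart.

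Without the replicate term limma called 361 genes (2.83%; 1.06% higher and 1.77% lower), all of them among the 1427. No gene was called by limma without replicate 1 of DMSO (2719 at an unadjusted p under 0.05), replicate 2 of DMSO (2498) or replicate 2 of JQ1 (2320), and 148 were called without replicate 1 of JQ1. All 1427 kept their direction in each of these omissions. They were called on these same arrays, and all had the same sign in both replicate pairs. A kept direction was therefore close to fixed in advance and is no added support.

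**Figure D1:**
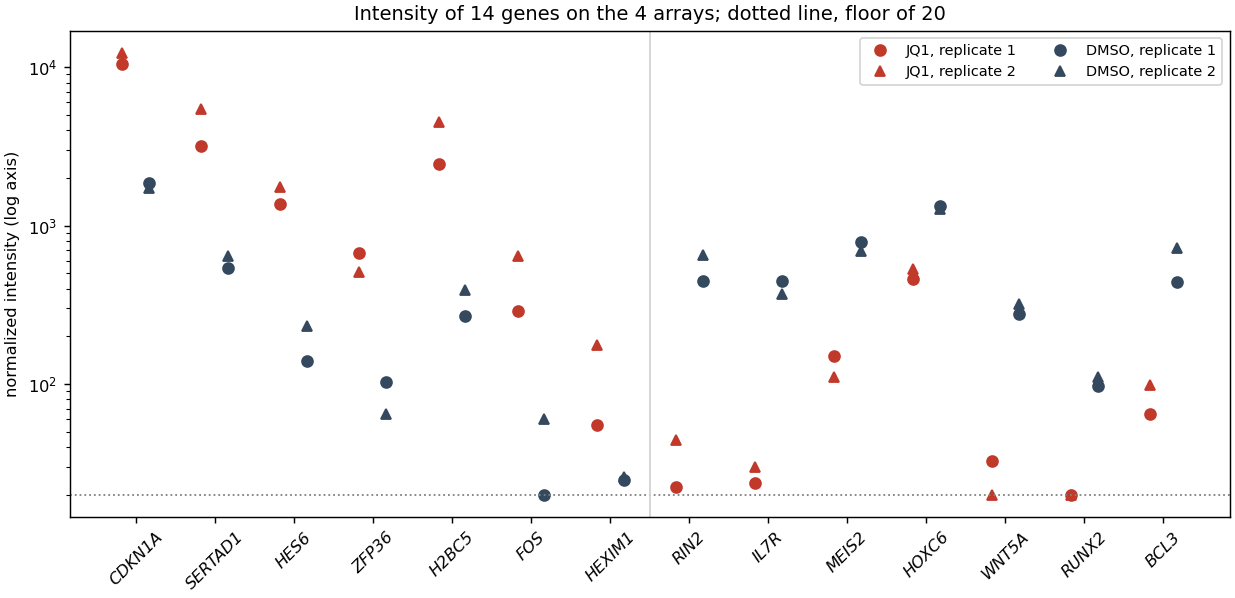
Normalized intensity (vertical log axis) of 14 genes on the 2 JQ1 arrays (red, left of each pair) and the 2 DMSO arrays (blue-grey, right); circles are replicate 1 and triangles replicate 2. The 7 genes left of the grey line are higher on both JQ1 arrays and the 7 to its right are lower on both, RUNX2 at the floor of 20.

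Among the 12 risen genes with the smallest p were regulators of the cell cycle, of transcription and of RNA decay. CDKN1A, which encodes the CDK inhibitor p21, had 10544 and 12225 in JQ1, against 1849.6 and 1738.2 in DMSO (log2 change 2.66, standard error (SE) 0.19, adjusted p = 0.00196); its second probe was at or near the floor in both groups. SERTAD1, a CDK4- and E2F-binding cofactor, had 3161.7 and 5466.6 in JQ1, against 538.3 and 643.5 in DMSO (2.82, SE 0.21). ZFP36, which encodes the mRNA decay factor tristetraprolin, had 672.9 and 509.2 in JQ1, against 103.1 and 64.9 in DMSO (2.84, SE 0.17). For each of these genes both JQ1 arrays lay above both DMSO arrays by a wide margin. Separate arrays were a condition for entering the 12, so this is no added support.

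The bHLH repressor gene HES6 had 1362.6 and 1750.4 in JQ1, against 139.1 and 232.7 in DMSO (log2 change 3.10, SE 0.25). The LIM cofactor gene LMO2 had 512.1 and 249.3 in JQ1, against 29.7 and 25.6 in DMSO (3.70, SE 0.28). IRF7, a transcription factor of the interferon response, had 590.3 and 676.3 in JQ1, against 97.7 and 121.6 in DMSO (2.54, SE 0.18), and its second probe had 1.53. Thus LMO2 was close to the floor in DMSO, whereas HES6 and IRF7 were measured well above it in both groups.

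Receptor tyrosine kinase genes were also among these 12. FGFR3 had 351.4 and 732.5 in JQ1, against 31.3 and 33.3 in DMSO (log2 change 3.97, SE 0.29), the largest rise among the genes named here, but its other probe had -0.10. MERTK, the receptor that clears dying cells, had 224.9 and 169.5 in JQ1, against 41.2 and 23.8 in DMSO (2.64, SE 0.21), and its second probe had 1.67. The remaining 4 were TUFT1 (2.43), METRNL (2.93, second probe 0.79), WDR47 (2.09) and the ubiquitin ligase gene PELI1, which was at the floor in DMSO and at least 5.3-fold higher in JQ1. All 12 were also called without the replicate term, at adjusted p of 0.00881 to 0.0257.

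The 12 fallen genes with the smallest p were led by RIN2, which encodes an exchange factor for the small GTPase Rab5. RIN2 had 22.3 and 44.5 in JQ1, against 444.7 and 647.9 in DMSO (log2 change -4.09, SE 0.18, adjusted p = 0.00131). IL7R, the interleukin-7 receptor chain, had 23.9 and 29.9 in JQ1, against 443.7 and 369.7 in DMSO (-3.92, SE 0.27), with -3.70 at its second probe. Both genes were near the floor on the JQ1 arrays.

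Transcription and DNA repair genes stood beside them. MEIS2, a HOX cofactor, had 150.3 and 111.0 in JQ1, against 782.5 and 689.7 in DMSO (log2 change -2.51, SE 0.17); its second probe was at or near the floor in both groups. The repair nuclease gene DCLRE1A had 24.2 and 23.9 in JQ1, against 189.7 and 205.2 in DMSO (-3.04, SE 0.23). Log2 changes were -2.78 in ZNF827, -2.97 in EVA1C, -3.54 in CCDC9B and -2.41 in NME6 (second probe -2.22). KLHL14 was at least 11.1-fold and the ubiquitin ligase gene G2E3 at least 4.93-fold lower in JQ1, where both were at the floor. KLHL14 also read 20 on all rapamycin and combination arrays, so it passed the filter only through DMSO and could only fall. G2E3 read 20 on both combination arrays too. Values held at the floor narrow the spread, so the rank of both genes by p is set partly by the floor.

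In CYTIP and TRIB2 the replicates differed and the difference within a replicate number was steady. CYTIP, a cytohesin-binding protein gene, had 51.1 and 184.6 in JQ1, against 501.3 and 1645.8 in DMSO, so replicate 2 was the higher array in both groups (log2 change -3.30 in replicate 1 and -3.16 in replicate 2). The pseudokinase gene TRIB2 had 21 and 55.2 in JQ1, against 164.5 and 339.2 in DMSO. Neither was called without the replicate term (adjusted p = 0.132 for CYTIP and 0.0836 for TRIB2), and the other CYTIP probes had 0.00 and -0.91.

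BRD2, a target of the drug, rose, as did POLR2A, CDK9 and HEXIM1. BRD2 had 5831.9 and 7341.9 in JQ1, against 2143.4 and 2466.9 in DMSO (log2 change 1.51, SE 0.18, adjusted p = 0.00566). POLR2A, the largest subunit of RNA polymerase II, had 2652.1 and 3246.9 in JQ1, against 1130.1 and 977.9 in DMSO (1.48, adjusted p = 0.00796). CDK9, the kinase of P-TEFb, had 762.8 and 559.4 in JQ1, against 370.3 and 269.1 in DMSO (1.05, adjusted p = 0.0252; 0.0781 without the replicate term). In these 3 genes all JQ1 values exceeded all DMSO values, as in most genes called higher.

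The P-TEFb inhibitor genes HEXIM1 and HEXIM2 moved in opposite directions. HEXIM1 had 55.5 and 175.6 in JQ1, against 24.7 and 25.8 in DMSO (log2 change 1.97, SE 0.40, adjusted p = 0.0277; 0.117 without the replicate term). HEXIM2 had 20 and 20 in JQ1, against 55.8 and 72.2 in DMSO, and was at least 3.17-fold lower in JQ1 (adjusted p = 0.03; 0.0704 without the replicate term). SERPINI1, which encodes neuroserpin, had 120.4 and 247.9 in JQ1, against 20 and 23.9 in DMSO (2.98, adjusted p = 0.00299), and its second probe had 1.37. BRD3 had 591.4 and 735.9 in JQ1 and 488.9 and 626.7 in DMSO, and did not pass (log2 change 0.25, SE 0.31, adjusted p = 0.661). In the list of BET proteins and elongation factors, 4 of 19 tested members rose and 1 fell (26.3% called, against 11.2% of all genes). Without the replicate term 2 rose and 0 fell. The median log2 change was 0.27, against 0.0 over all genes. CCNT1, the cyclin partner of CDK9, had 1029.4 and 991.3 in JQ1 and 621.2 and 679.2 in DMSO, and did not pass (0.64, adjusted p = 0.0548). The HEXIM1 promoter is shown for the TATA element upstream of its start. It was read from RefSeq on GRCh38.p14, plus strand, chr17:45148225-45148524, from 250 bases before to 50 after the annotated start. Capitals here and below mark matches on either strand to the TATA element (TATAAA), the CCAAT box or the CArG box.
HEXIM1: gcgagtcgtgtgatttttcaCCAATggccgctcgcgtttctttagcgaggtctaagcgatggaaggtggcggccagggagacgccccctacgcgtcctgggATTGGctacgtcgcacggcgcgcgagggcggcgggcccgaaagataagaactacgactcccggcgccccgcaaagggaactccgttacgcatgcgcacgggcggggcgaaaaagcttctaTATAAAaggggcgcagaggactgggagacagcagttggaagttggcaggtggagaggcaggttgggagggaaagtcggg

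Histone genes formed the list with the highest share of risen members. Of 32 tested, 18 rose and none fell (56.2% called, against 11.2% of all genes), or 6 and 0 without the replicate term. The median log2 change was 1.08. H3C4, H2BC6 and H4C8, among the 18, read 20 on both DMSO arrays, so against DMSO they could only rise. With probes above the floor on all arrays, 14 of 21 histone genes rose and none fell, against 668 of 9029 genes higher. H2BC5 had 2432.2 and 4474.8 in JQ1, against 269.8 and 392.2 in DMSO (log2 change 3.34, SE 0.36, adjusted p = 0.00419), and its second probe had 2.84. H2BC21 had 455.1 and 1279.0 in JQ1, against 72.6 and 190.8 in DMSO (2.70, adjusted p = 0.00341; 0.0836 without the replicate term). H2BC8 had 118.1 and 177.1 in JQ1, against 20 and 36.1 in DMSO (2.43, adjusted p = 0.00341). All 3 encode histone H2B, and in each the JQ1 and DMSO arrays did not overlap, as in most called genes.

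Histone genes of several classes and chromosomes took part. On chromosome 1, 6 of 7 tested members rose (median log2 change 1.98), and on chromosome 6, 8 of 17 (0.93). The brightly measured H2BC12 had 18876 and 16293 in JQ1, against 6697.6 and 7101.8 in DMSO (1.35, adjusted p = 0.0189; 0.081 without the replicate term). The variant genes H1-10 (1.56), H2AX (1.26), H3-3B (0.99) and H2AJ rose too, the last 3 with the replicate term only. H2AZ1 had 34541 and 30160 in JQ1 and 30514 and 27031 in DMSO, with a log2 change of 0.17 that did not pass (adjusted p = 0.56), and MACROH2A1 had 0.06. H4C14 and H4C15, and H2AC18 and H2AC19, are near-identical copies whose probes cannot be taken as separate measurements.

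Most risen histone promoters carried a TATA element shortly before the start. On the gene's own strand, TATAAA began 35 to 20 bases before the start in 12 of 18 risen histone promoters (66.7%). The window was chosen after the matches had been seen. Over all genes tested the count was 227 of 10149 promoters (2.24%), or 214 of 10118 without the histone list. The 18 are not all separate, since H2AC18 and H2AC19 have near-identical promoters, as do H4C14 and H4C15. The promoters of H2BC5 and H2BC21 are shown because both rose and both hold this element. They come from RefSeq on GRCh38.p14, at chr6:26157871-26158170 (plus strand) and chr1:149886633-149886932 (minus strand). The second overlaps the promoter of the divergent gene H2AC20, which also rose (log2 change 1.48, adjusted p = 0.0278; 0.104 without the replicate term).
H2BC5: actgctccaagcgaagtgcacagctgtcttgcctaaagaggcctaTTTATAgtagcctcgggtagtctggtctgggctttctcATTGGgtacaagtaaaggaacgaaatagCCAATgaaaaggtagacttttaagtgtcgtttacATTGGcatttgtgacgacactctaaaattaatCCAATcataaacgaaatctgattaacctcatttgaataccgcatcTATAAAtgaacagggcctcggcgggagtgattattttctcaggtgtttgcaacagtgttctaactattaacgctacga
H2BC21: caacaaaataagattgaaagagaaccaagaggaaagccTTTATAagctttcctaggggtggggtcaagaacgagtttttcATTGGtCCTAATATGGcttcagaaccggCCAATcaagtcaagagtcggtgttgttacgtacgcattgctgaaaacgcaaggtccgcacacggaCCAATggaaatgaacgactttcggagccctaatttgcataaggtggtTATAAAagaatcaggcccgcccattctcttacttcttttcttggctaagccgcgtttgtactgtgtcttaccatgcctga

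**Figure D2:**
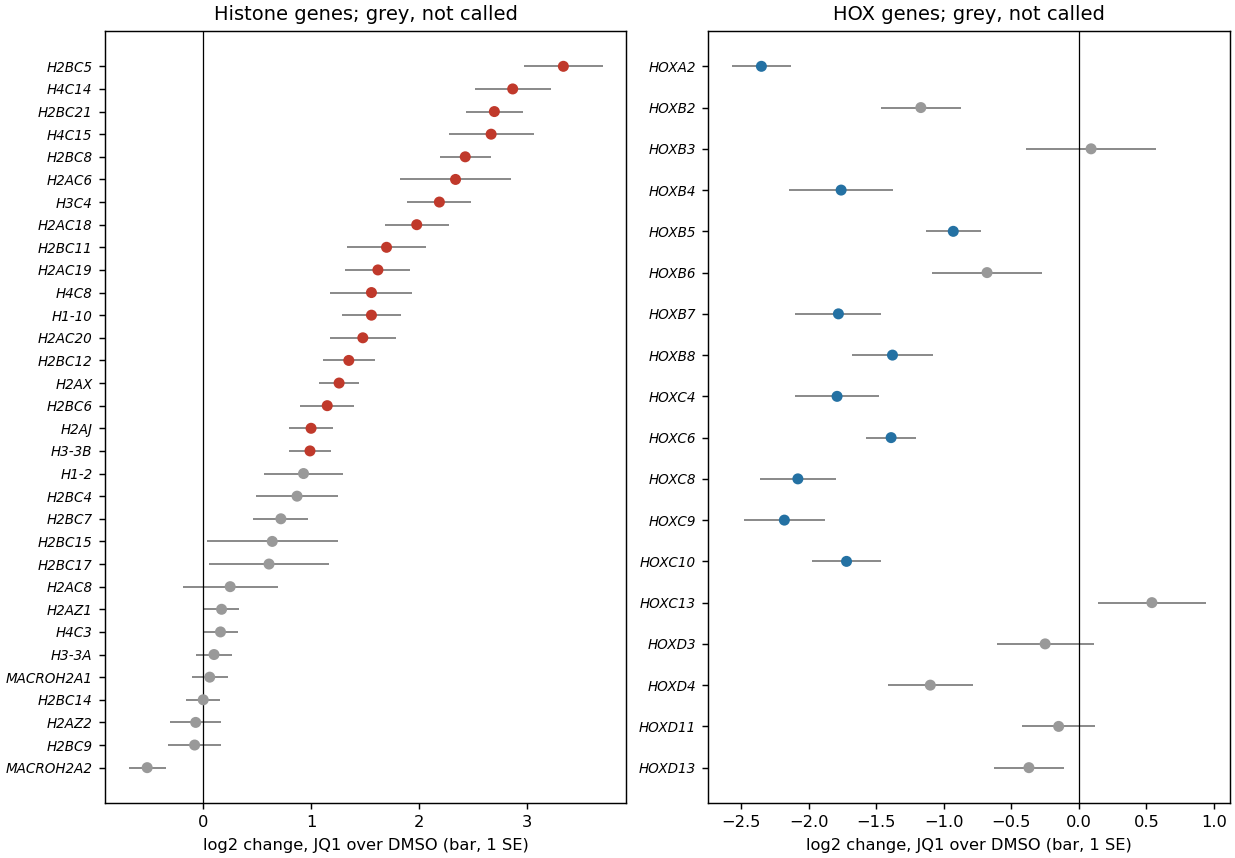
Log2 change of JQ1 over DMSO (horizontal axis, points with 1 SE) for the 32 histone genes tested (left) and the 18 HOX genes tested (right); coloured points passed at an adjusted p under 0.05 and grey ones did not. The 18 called histone genes lie right of 0 and the 10 called HOX genes left of it.

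Immediate early genes, which growth signals switch on within minutes, rose for 11 of 28 tested members and fell for none. Without the replicate term 4 rose and 0 fell. In all 39.3% were called, against 11.2% of all genes, and the median log2 change was 0.57. FOS, an AP-1 subunit, had 287.1 and 643.0 in JQ1, against 20 and 60.1 in DMSO (3.63, SE 0.38, adjusted p = 0.00394). EGR1, a zinc-finger factor, had 1739.9 and 2207.4 in JQ1, against 492.5 and 768.6 in DMSO (1.67, SE 0.23, adjusted p = 0.00796). CCN2, which encodes the matricellular protein CTGF, had 3978.5 and 2042.9 in JQ1, against 485.9 and 347.2 in DMSO (2.80, adjusted p = 0.0103; 0.101 without the replicate term), with 2.40 at its second probe. The arrays did not overlap for these 3 genes, as for most called genes. FOS was at the floor on 1 DMSO array, so its fold is set partly by the floor.

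The other AP-1 genes FOSB (1.89), JUN (1.29), JUND (1.12) and JUNB (0.88) rose by less, each called only with the replicate term. FOSL1 had 889.8 and 525.0 in JQ1 and 617.2 and 649.4 in DMSO, with overlapping arrays and no call (0.11, adjusted p = 0.814). MYC had 276.5 and 175.4 in JQ1, against 105.2 and 120.0 in DMSO; its log2 change of 0.97 (SE 0.46) did not pass (adjusted p = 0.236), and its second probe had 1.19. Genes that MYC is known to drive fell for 3 of 33 members (RRS1, PPAN and GART, none of them without the replicate term) and rose for none, a share of 9.09% that is near the background of 11.2%. The promoters of FOS (chr14:75278578-75278877) and EGR1 (chr5:138465229-138465528) are both from the plus strand of GRCh38.p14 in RefSeq. They are shown for elements within the stretch read: TATAAA in FOS, and in EGR1 a pair of CArG boxes, the sites bound by serum response factor. Sequence more than 250 bases before the start was not read, so whether FOS has a CArG box there cannot be said.
FOS: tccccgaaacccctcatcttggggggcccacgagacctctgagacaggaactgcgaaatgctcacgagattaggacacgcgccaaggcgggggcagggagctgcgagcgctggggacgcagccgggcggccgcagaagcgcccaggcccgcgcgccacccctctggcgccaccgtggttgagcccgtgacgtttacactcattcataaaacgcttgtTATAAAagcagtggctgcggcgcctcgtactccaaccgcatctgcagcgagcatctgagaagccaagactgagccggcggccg
EGR1: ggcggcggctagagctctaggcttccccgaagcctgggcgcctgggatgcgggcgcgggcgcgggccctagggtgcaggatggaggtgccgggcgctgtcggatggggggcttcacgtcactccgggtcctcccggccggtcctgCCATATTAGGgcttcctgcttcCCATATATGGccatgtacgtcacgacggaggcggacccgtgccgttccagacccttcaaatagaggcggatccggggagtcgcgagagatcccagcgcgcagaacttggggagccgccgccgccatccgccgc

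Over all promoters with a sequence, motif shares were set side by side as a description, with no test. TATAAA occurred on either strand in 12.5% of 473 promoters of risen genes and 6.06% of 710 of fallen genes, against 6.4% of 10149 promoters of genes tested. In the window before the start the shares were 9.3%, 1.13% and 2.24%, or 7.03%, 1.13% and 2.12% without the histone list. CCAAT was found in 47.6% of risen, 31.1% of fallen and 37.3% of all promoters, and GGGCGG in 78.4%, 60.3% and 67.3%. The AP-1 consensus TGANTCA stood in 3.17%, 6.48% and 4.78%, CACGTG in 8.46%, 12.1% and 9.81%, and the CArG box in 1.27%, 1.55% and 1.1%. Median GC content was 68.0%, 63.3% and 64.7% in the same order. GGGCGG and the AT-rich TATAAA ranked the sets as GC content did, and CACGTG ranked them the other way. The shares of TGACGTC were 6.98%, 5.21% and 5.64%, and those of the loose NF-kB pattern, which GC-rich sequence often matches by composition, were 78.9%, 69.9% and 72.0%.

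HOX genes, which set positional identity along the body axis, formed the list with the highest share of fallen members. Of 18 tested, 10 fell and none rose (55.6% called, against 11.2% of all genes), or 4 and 0 without the replicate term. The median log2 change was -1.28. HOXC6 had 460.9 and 533.1 in JQ1, against 1330.4 and 1272.5 in DMSO (-1.39, SE 0.18, adjusted p = 0.0074); its second probe was near the floor in both groups. HOXA2 had 43.2 and 46.9 in JQ1, against 188.2 and 279.2 in DMSO (-2.35, adjusted p = 0.00321; second probe -2.52). HOXC8 had 113.9 and 70.3 in JQ1, against 454.5 and 315.0 in DMSO (-2.08, adjusted p = 0.00786; 0.123 without the replicate term). In all 3 both JQ1 arrays lay below both DMSO arrays, as in most genes called lower.

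By cluster, 5 of 6 tested HOXC genes and 4 of 7 HOXB genes fell, against 6.7% of all genes. HOXA2, the 1 HOXA gene that passed the filter, fell too. Without the replicate term only HOXA2, HOXC6, HOXC9 and HOXC10 kept their call, and no HOXB gene did. None of 4 HOXD genes passed, with a median log2 change of -0.31. HOXD3, HOXD11 and HOXD13 had at most 38.8 in DMSO, so the floor left them little room to fall. Whether the clusters differ was not tested. HOXC9 read 20 and 20 in JQ1, against 79.6 and 103.5 in DMSO. HOXB8 was the 1 called member whose arrays overlapped, with 20 and 85.3 in JQ1 and 79.2 and 146.3 in DMSO (adjusted p = 0.413 without the replicate term). HOXC13, at the 5′ end of its cluster, had a log2 change of 0.54 that did not pass (adjusted p = 0.451).

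**Figure D3:**
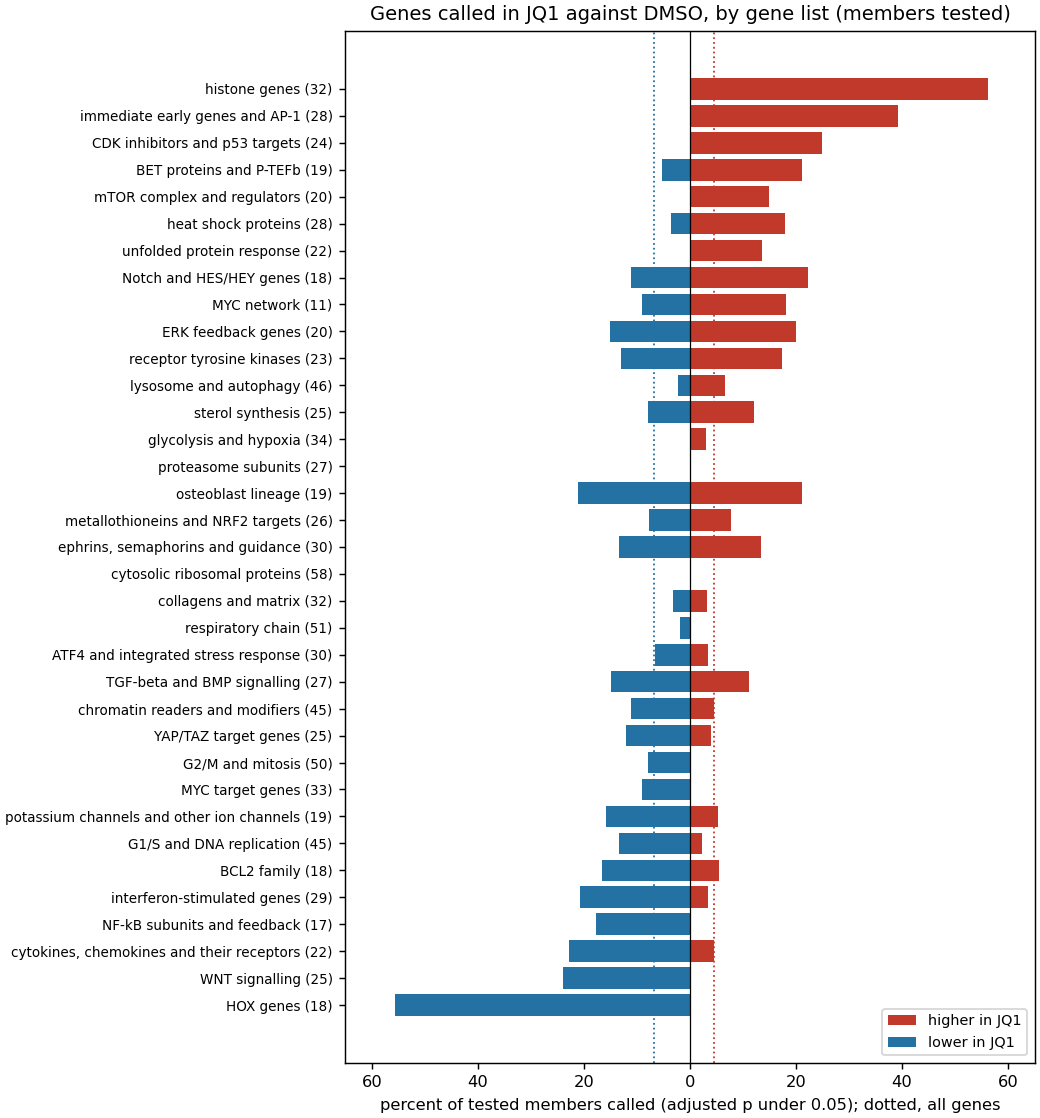
Percent of the tested members of 35 gene lists (number tested in brackets) that were called higher in JQ1 (red, right of 0) or lower (blue, left of 0); dotted lines give the shares over all genes, 4.48% and 6.7%. Histone genes reach 56.2% higher and HOX genes 55.6% lower, the ends of the range.

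Osteoblast lineage genes moved both ways, with 4 of 19 higher and 4 lower, or 1 and 1 without the replicate term (42.1% called, against 11.2% of all genes; median log2 change -0.06). For RUNX2, the transcription factor that commits cells to bone, the 2 JQ1 arrays read 20 and 20 and the DMSO arrays 96.5 and 110.9. It was at least 5.17-fold lower in JQ1 (adjusted p = 0.00228), but a dimmer probe gave a log2 change of 0.23. TNFRSF11B, which encodes the decoy receptor osteoprotegerin, had 482.5 and 91.3 in JQ1, against 1972.8 and 2086.4 in DMSO (-3.27, SE 0.59, adjusted p = 0.0184; 0.0657 without the replicate term). The cadherin gene CDH11 had 1787.2 and 1548.2 in JQ1, against 3025.8 and 3970.7 in DMSO (-1.06, adjusted p = 0.0354; 0.11 without the replicate term). The BMP target ID1 had 7220.5 and 6659.5 in JQ1, against 2971.8 and 2044.9 in DMSO (1.49, adjusted p = 0.0132), and its second probe had 1.35. SPARC (1.06), MSX2 (1.30) and ID2 (0.98) rose as well, with the replicate term only.

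WNT pathway genes fell for 6 of 25 tested members and rose for none (24.0% called, against 11.2% of all genes). Without the replicate term 2 fell and 0 rose. The median log2 change was -0.18. The non-canonical ligand WNT5A had 32.6 and 20 in JQ1, against 278.1 and 322.0 in DMSO (-3.55, SE 0.32, adjusted p = 0.003). WNT7B had 64.4 and 35 in JQ1, against 413.0 and 283.7 in DMSO (-2.85, adjusted p = 0.00341), with -1.90 at its second probe. The secreted WNT inhibitor DKK1 had 263.3 and 137.9 in JQ1, against 1581.5 and 611.1 in DMSO (-2.37, adjusted p = 0.0239; 0.149 without the replicate term). WNT5A and WNT7B were thus near the floor after JQ1, and DKK1 was still measured.

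In TGF-beta and BMP signalling, 3 of 27 genes rose and 4 fell, or 1 and 2 without the replicate term (25.9% called, against 11.2% of all genes). The receptor gene TGFBR2 had 503.3 and 767.0 in JQ1, against 1394.6 and 2241.1 in DMSO (log2 change -1.51, SE 0.16, adjusted p = 0.00419; 0.081 without the replicate term; second probe -1.21). GREM1, a secreted BMP antagonist, had 30.6 and 34.6 in JQ1, against 188.8 and 155.0 in DMSO (-2.39, adjusted p = 0.00489). SMAD3, a signal transducer, fell by 1.27 (adjusted p = 0.00711) and the inhibitory SMAD6 by 1.36 (adjusted p = 0.0221; 0.0823 without the replicate term). In the list of collagens and matrix genes 1 of 32 rose (MMP1) and 1 fell (THBS2), both with the replicate term only, 6.25% in all and below the background of 11.2%.

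Cytokines and their receptors fell for 5 of 22 tested members, and 1 rose (27.3% called, against 11.2% of all genes). Without the replicate term 2 fell and 0 rose. IL6 had 25.8 and 20 in JQ1, against 96.2 and 67.7 in DMSO (-1.83, adjusted p = 0.0045; 0.0611 without the replicate term). The related cytokine LIF had 24.7 and 20 in JQ1, against 54.4 and 75.3 in DMSO (-1.53, adjusted p = 0.0125). IL11, of the same family, had 2489.0 and 2563.1 in JQ1, against 776.4 and 481.0 in DMSO (2.05, SE 0.27, adjusted p = 0.00702; 0.0609 without the replicate term). Thus IL11 was higher on both JQ1 arrays while IL6 and LIF were lower on both. The NF-kB cofactor gene BCL3 had 64.7 and 99.2 in JQ1, against 443.6 and 723.0 in DMSO (-2.82, adjusted p = 0.00394; 0.0792 without the replicate term), and 3 of 17 NF-kB genes fell in all, with none higher and none called without the replicate term (17.6% called). Interferon-stimulated genes fell for 6 of 29 members and rose for 1 (24.1% called), with no fall called without the replicate term, led by IFI44 (-1.40, adjusted p = 0.00796; 0.112 without the replicate term), while IRF7 rose.

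Among CDK inhibitors and p53 targets 6 of 24 members rose and none fell, or 3 and 0 without the replicate term (25.0% called, against 4.48% higher over all genes, or 1.06% without the term; median log2 change 0.38). CDKN2D, which encodes p19, had 394.2 and 544.0 in JQ1, against 120.3 and 179.8 in DMSO (1.65, SE 0.17, adjusted p = 0.00394; 0.0648 without the replicate term). SESN1, a stress-induced mTORC1 inhibitor, had 183.4 and 223.3 in JQ1, against 44.8 and 66.7 in DMSO (1.89, adjusted p = 0.00321). GADD45B rose by 1.70 and RRM2B by 1.26, both with the replicate term only.

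Genes of the G1/S transition and DNA replication fell for 6 of 45 members and rose for 1, or 1 and 0 without the replicate term (15.6% called, near the 11.2% of all genes; median log2 change -0.21). E2F2 had 34.1 and 34.3 in JQ1, against 227.7 and 285.1 in DMSO (-2.90, SE 0.27, adjusted p = 0.00321). CCNE1, which encodes cyclin E1, had 467.9 and 281.8 in JQ1, against 235.0 and 123.2 in DMSO (1.09, adjusted p = 0.0218; 0.352 without the replicate term). CCND1 had 9536.4 and 5090.7 in JQ1 and 9363.7 and 8312.7 in DMSO, with overlapping arrays and no call (-0.34, adjusted p = 0.393). Mitosis genes fell for 4 of 50 members (8.0% called, against 11.2% of all genes), with BUB1B, ECT2, AURKA and KIF14 lower, each with the replicate term only.

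Growth factor signalling genes changed in both directions. Besides FGFR3 and MERTK, FGFR4 and the adaptor gene IRS2 rose and EGFR, PDGFRB and IRS1 fell. Of 23 receptor tyrosine kinases and adaptors, 4 were higher and 3 lower (30.4% called, against 11.2% of all genes). Without the replicate term 2 were higher and 1 lower. FGFR4, IRS2 and PDGFRB were called with that term only. IRS1, the insulin receptor adaptor, had 232.6 and 149.2 in JQ1, against 798.1 and 1035.7 in DMSO (-2.29, SE 0.41, adjusted p = 0.0182; 0.0593 without the replicate term). EGFR had 85.3 and 123.3 in JQ1, against 279.3 and 251.5 in DMSO (-1.37, adjusted p = 0.0173), and -0.11 at its second probe. The ERK inhibitor gene SPRY1 had 123.4 and 187.3 in JQ1, against 508.0 and 1291.5 in DMSO (-2.41, adjusted p = 0.00341; 0.081 without the replicate term; second probe -2.38), whereas the ERK phosphatase genes DUSP1 and DUSP6 rose, with the replicate term only. In guidance genes 4 of 30 rose, led by the ephrin gene EFNB2 (841.6 and 916.3 in JQ1, 234.8 and 257.4 in DMSO, log2 change 1.84, adjusted p = 0.0054), and 4 fell, among them SEMA3A and NRP1, or 1 and 2 without the replicate term (26.7% called). A second NRP1 probe, above the floor on all 8 arrays, had 337.5 and 450.6 in JQ1, against 336.2 and 469.0 in DMSO (log2 change -0.03).

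Chromatin regulators changed for 7 of 45 members (2 higher, 5 lower; 1 and 1 without the replicate term), 15.6%, a share near the 11.2% of all genes. ZMYND8, a reader of acetylated and methylated histones, had 20 and 20 in JQ1, against 174.6 and 382.2 in DMSO (at least 12.9-fold lower, adjusted p = 0.003). A second probe had -3.59, and the remaining one was at or near the floor in both groups. The deacetylase gene SIRT1 had 346.0 and 414.5 in JQ1, against 154.9 and 155.3 in DMSO (1.29, adjusted p = 0.00786), and the remodeller subunit gene ARID1A had 365.6 and 354.9 in JQ1, against 674.9 and 719.5 in DMSO (-0.95, adjusted p = 0.0228; 0.0564 without the replicate term).

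Stress and metabolic lists were called for some members, where 11.2% of all genes were called. Heat shock genes rose for 5 of 28 members and fell for 1, or 1 and 0 without the replicate term (21.4% called), with HSPA2 at 266.8 and 430.8 in JQ1, against 65.4 and 72.2 in DMSO (log2 change 2.30, adjusted p = 0.0085; 0.0757 without the replicate term; second probe 2.33). In sterol metabolism IDI1 rose (1.38, adjusted p = 0.00629), and the cholesterol exporter gene ABCA1 had 20.6 and 21.7 in JQ1, against 91.0 and 108.7 in DMSO (-2.23, adjusted p = 0.00321). TXNIP, an inhibitor of thioredoxin, had 291.6 and 3033.2 in JQ1, against 80.1 and 120.4 in DMSO (3.26, SE 0.61, adjusted p = 0.0212; 0.21 without the replicate term), so the size of its rise rests on replicate 2. The metallothionein gene MT1X had 12882 and 30710 in JQ1, against 3466.5 and 6348.2 in DMSO (2.08, adjusted p = 0.0137; 0.0637 without the replicate term). The apoptosis genes MCL1 (1.10) and BCL2L1 (-1.21) changed in opposite directions, both with the replicate term only.

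The remaining lists are given as members higher and lower, with the same counts without the replicate term. Over all genes 11.2% were called, or 2.83% without that term. Notch and HES/HEY genes had 4 and 2 of 18 (33.3% called), or 1 and 0. HES6 held in both fits, and the ligand gene JAG2 and the receptor gene NOTCH1 rose, and RBPJ and HEY1 fell, with the replicate term only. In the MYC network of 11 members (27.3% called), the MYC antagonist MXD3 rose and MGA fell in both fits, and MXD4 rose with the replicate term only. ERK feedback genes had 4 and 3 of 20 (35% called), or 1 and 1, and YAP/TAZ targets 1 and 3 of 25 (16.0%), or 0 and 1. Ion channels had 1 and 3 of 19 (21.1%), or 0 and 3, and sterol genes 3 and 2 of 25 (20%), or 1 and 2. The BCL2 family had 1 and 3 of 18 (22.2%), and metallothioneins and NRF2 targets 2 and 2 of 26 (15.4%), with no call left in either without the replicate term.

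Several lists lay near or under the background of 11.2%. Regulators of mTOR had 3 and 0 of 20 (15%), or 1 and 0 without the replicate term, where SESN1 held. The unfolded protein response list had 3 and 0 of 22 (13.6%), ATF4 targets 1 and 2 of 30 (10.0%), and neither had a call without the replicate term. Lysosome and autophagy genes had 3 and 1 of 46 (8.7%), or 0 and 1. TXNIP among 34 glycolysis and hypoxia genes (2.94%) and UQCR11 among 51 respiratory chain genes (1.96%) were single calls, lost without the replicate term. None of 58 cytosolic ribosomal protein genes and none of 27 proteasome genes was called, and their median log2 changes were 0.05 and -0.13.

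Among markers of other cell types, the neural genes TUBB3 and MBP were called. Haematopoietic, epithelial, endothelial, and fat, cartilage or muscle markers had no call. Among them PTPRC, CD3E, CDH1, KRT5, CDH5, VWF and MYOD1 were at the floor on all 4 arrays. Other members were measured above it, such as the epithelial KRT8 (1181.3 and 1218.0 in JQ1, 851.9 and 1150.1 in DMSO), KRT18 and EPCAM. So were the haematopoietic CD68 (797.1 and 1339.7 in JQ1, 697.2 and 1119.3 in DMSO) and the cartilage marker SOX9. The fat, cartilage and muscle markers summed, above the floor, to 949.1 and 1432.1 in JQ1, against 1275.4 and 2932.7 in DMSO, mostly PPARG, which did not pass (-0.82, adjusted p = 0.0673). The haematopoietic marker CD14 had a log2 change of -0.67 (adjusted p = 0.325). Neural markers summed, above the floor, to 17585 and 21415 in JQ1, against 7220.1 and 6723.4 in DMSO. That sum is nearly all TUBB3, a neuronal tubulin gene, with 17447 and 21182 in JQ1, against 6698.9 and 5923.8 in DMSO (log2 change 1.61, adjusted p = 0.00565). SOX10, GFAP and RBFOX3 were at the floor on all 4 arrays, and the myelin gene MBP fell (-1.78, adjusted p = 0.00321; 0.0524 without the replicate term).

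A second JQ1 comparison, the combination against rapamycin, shares no array with the first. It called 1445 genes (11.3%), 545 higher (4.27%) and 900 lower (7.05%). Of the 1427 genes called for JQ1 over DMSO, 1373 had the same sign there (96.2%, against 70.1% of all genes tested) and 824 were called in the same direction. These are 57.7% of the first list and 57.0% of the second. Among the 361 genes called with and without the replicate term, 292 were called again (80.9%). Across the 12759 genes the log2 changes correlated at 0.746 (Pearson) and 0.639 (Spearman). Genes are not independent replicates, and both comparisons share the replicate sets, the normalization and the pooled variance.

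The medians of the leading lists had the same sign in that comparison. Histone genes had a median log2 change of 1.44 there, immediate early genes 0.54 and HOX genes -0.86. FGFR3 had 361.3 and 334.0 in the combination, against 27.7 and 38.0 in rapamycin. CDKN1A had 13677 and 11901 in the combination, against 4019.1 and 3364.8 in rapamycin, and RIN2 had 48.2 and 86.9 in the combination, against 225.4 and 373.2 in rapamycin. The unfolded protein response list had a median of 0.43 for JQ1 over DMSO and of -0.18 for the combination over rapamycin; this difference was not tested. The interaction, the JQ1 change with rapamycin minus that without it, passed for 1 of 12759 genes (0.00784%), KLHL14.

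**Figure D4:**
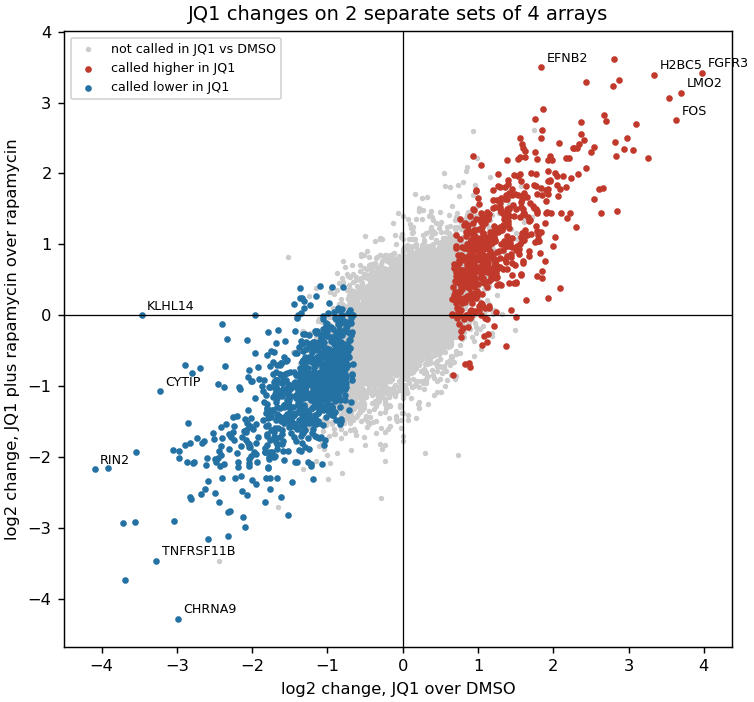
Each point is 1 of 12759 genes: log2 change of JQ1 over DMSO (horizontal) against that of the combination over rapamycin (vertical), which uses other arrays. Genes called higher (red) and lower (blue) in JQ1 lie mostly in the upper right and lower left, 1373 of 1427 with the same sign; KLHL14 lies at 0 on the vertical axis.

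Other probes of the called genes gave a check on single-probe values. Of 507 such probes, 441 had the sign of the gene's brightest probe (87.0%), and of the 258 above the floor on all 8 arrays, 241 did (93.4%).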

How the data were processed

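Total RNA was hybridised as biotin-labelled cRNA, per the labels. The design text names Affymetrix arrays, but the probe identifiers and the labelling kit are for Illumina arrays. Both tables deposited by the authors hold linear probe intensity. The value table is normalized by a method not given in the sources used here, with a floor of 20, and log2 of its intensity as deposited was taken here. The non-normalized intensity already had a background subtracted by the authors, since 28.3% to 30.3% of values per array lay below 0. Its arrays were matched to the value table by rank correlation (lowest match 0.997, highest other pair 0.9795).

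Probe symbols came from the platform annotation, updated by gene identifier to RefSeq of GRCh38.p14 (30063 of 47304 probes). Of all probes, 30102 carried 1 symbol, 8 several and 17194 none. Probes above 20 on at least 2 of 8 arrays were kept, and each of 12759 genes was represented by its brightest probe (mean log2 value). The model was fitted in limma 3.58.1 (R 4.3.3) on all 8 arrays, with a mean per group and the replicate number from the titles as a block (3 residual and 3.92 prior degrees of freedom). The titles give the numbers but not what they mark; every pair of groups deviated together by number (0.423 to 0.549). Adjusted p-values are Benjamini-Hochberg values over all genes. On simulated arrays with 100 genes changed by 3 on the log2 scale, 90 to 96 were called in 5 runs of the JQ1 comparison, and 80 to 84 of 100 changed by 2.

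Named genes were the 12 with the smallest p in each direction whose arrays do not overlap (provisional symbols left out), up to 3 called members per list and direction, and BRD2, BRD3, HEXIM1, SERPINI1, MYC, CDKN1A, RUNX2, FOSL1, CCND1, FOS and IL6; other list members are examples. The members, the 35 lists and the tests were chosen with earlier results of these data known. Promoters were read for 10149 genes from the RefSeq table. Alternatives tried were the model, arrays, filters, scaling, input table, variance, array weights, probes and threshold.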

Additional observations from a re-analysis of the deposited data

Results flagged for a closer look

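KLHL14 was the 1 gene for which the JQ1 change differed with and without rapamycin by the interaction test. The difference was 3.47 on the log2 scale (SE 0.25, adjusted p = 0.0372, limma). KLHL14 had 20 and 20 in JQ1, against 250 and 195.5 in DMSO, and stood at the floor of 20 on both combination and both rapamycin arrays. Its interaction value is therefore set by the floor. Leaving out any 1 of the 8 arrays ended the call, as did leaving out the replicate term.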

How the results depend on the processing

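For JQ1 over DMSO the count of 1427 called genes became 361 without the replicate block (the pairing by replicate number left out), 0 with only the 4 arrays compared (3016 at an unadjusted p under 0.05, limma), 96 without a filter, 2186 from the non-normalized table (50 added, then quantile normalized), and 324 at an adjusted p under 0.01. Leaving out single arrays gave 0 to 944. It stayed within 1.5 times, at 1476 to 2088, with median centring, quantile normalization, array weights, probe means, trended robust variance and probes above the floor on all arrays. The 4-array fit has 1 residual degree of freedom. For the combination over rapamycin the count of 1445 became 334 without the replicate block and 0 to 760 over omissions. The interaction count of 1 became 0 without the block (448 at an unadjusted p under 0.05, limma) and 0 in each omission. BRD3 ran from -0.08 to 0.59 and FOSL1 from -0.18 to 0.40 over omissions, turning sign. Of 143 named genes, no other turned sign under any alternative run, but 139 of them were called in the main fit, which favours a kept sign. Without the block 81 lost their call. Over omissions the called histone genes numbered 0 to 17 of 32 (median log2 change 0.99 to 1.35), the immediate early genes 0 to 11 of 28, and the HOX genes 0 to 8 of 18. These list counts and the window for TATAAA were added after seeing the data. The cause of the moves was not tested. A floor of 20 limits what can be said of dim genes.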

Other observations

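Of the genes called for JQ1 over DMSO and for the combination over rapamycin, 2 were called in opposite directions, both chosen here after their values were seen. DNAJB9, which encodes an ER co-chaperone, had 335.8 and 372.6 in JQ1, against 203.1 and 245.7 in DMSO (log2 change 0.66, adjusted p = 0.0456; 0.138 without the replicate term), and a log2 change of -0.84 for the combination over rapamycin (adjusted p = 0.0226). The splicing helicase gene DHX8 had log2 changes of 0.89 (adjusted p = 0.0263; 0.128 without the replicate term) and -0.73 (adjusted p = 0.0463). The interaction did not pass for either (adjusted p = 0.386 for both, limma).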
